A study of Mus musculus with 42 samples.

Results

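A set of 10 germline genes was followed through the differentiation of mouse embryonic stem cells into embryoid bodies. The genes were chosen by name, as genes whose known work is in germ cells: Dazl, Stra8, Meiob, Sycp3, Sycp1, Mael, Slc25a31, Asz1, Hormad1 and Tex101. Matched by symbol to the Ensembl identifiers of the deposited tables, 8 of the 10 were among the 14296 genes measured, and Asz1 and Tex101 were not in the tables, which hold genes above 1 CPM (counts scaled to the size of the library) in at least 2 libraries. The cells were W9.5 embryonic stem cells of the 129X1/SvJ strain at passage 18, a line rather than a set of animals, for which the labels give no genetic change. LIF, the cytokine that holds these cells in self-renewal, was withdrawn at 0 h, and cultures were harvested every 6 h up to 120 h with no factor added to direct them to a lineage. The series has 42 poly-A RNA-seq libraries, 2 at each of 21 time points, from duplicate courses called replicates A and B.

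Germline genes of this kind are silent in most body cells. In the embryo they are shut off around implantation, when the de novo DNA methyltransferases methylate their CpG-rich promoters, and a polycomb complex called PRC1.6, which binds DNA through the MGA and MAX pair at E-boxes and through E2F6 at E2F sites, also holds them down. Embryonic stem cells are known to transcribe a number of them at a low level, and germ cells use them later for meiosis, for transposon silencing by piRNAs and for sperm metabolism.

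Between 10120972 and 51652434 reads were counted per library (median 29692082), so that 3 reads equalled between 0.0571 and 0.316 CPM. All 8 embryonic stem cell markers examined were in the tables. Of them 7, Klf4 and Esrrb among them, were lower at 48 h than at 0 h, against 15.6% of all genes by limma. At 120 h against 48 h, 5 of the 8 were higher and 1 was lower (median log2 difference 1.51), against 14.2% and 11% of all genes. The 5 epiblast markers in the tables, Fgf5 and Dnmt3b among them, were all higher at 48 h, against 14.8% of all genes. Of 15 genes of 2-cell-like cells, a rare totipotent-like state, only Zfp352 was in the tables, at 1.81 CPM or less at the daily time points examined. Markers of feeder fibroblasts summed to 30.0 and 33.3 CPM at 0 h (replicates A and B). The sums were 12.9 and 11.1 at 48 h and 119 and 108 at 120 h. Col3a1 and Dcn had 0 reads in both 0 h libraries, while Thy1 had a mean of 4.37 log2 CPM there. By 48 h, 1 of the 8 measured was higher (Dcn, log2 difference 6.10) and 2 were lower (Pdgfra, -2.25, and Thy1, -1.94). At 120 h against 48 h, 5 of the 8 were higher and none was lower, against 14.2% and 11% of all genes. The part of feeder fibroblasts in the germline values was not tested. Duplicates lay farthest apart at 96 h (root mean square SD over all genes 0.523 on the log2 scale, against 0.226 to 0.460 at the other time points). At 96 h replicate B was below replicate A for 7 of the 8 germline genes, and 5 of the 8 had their widest gap between duplicates there. Values that rest on that library are therefore given with and without it.

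The promoters of 9 of the 10 genes were read from RefSeq (GRCm38.p6), as the 250 bases before each transcription start. They were searched on both strands for the E-box CACGTG, the letters that MGA and MAX bind, and for the E2F site TCCCGC, which cannot overlap an E-box by more than 1 base. An E-box stood in 5 of the 9 promoters, those of Sycp3, Hormad1, Sycp1, Mael and Slc25a31, against 6.05% of the 27018 genes with such a sequence and 8.53% of the 10683 that were also measured here. Sycp3 and Hormad1 each held 2 E-boxes, as did 0.448% of all genes. An E2F site stood in 3 of the 9 promoters (33.3%), those of Sycp3, Mael and Hormad1, against 16.9% of all genes and 31.3% of those measured. The share was thus near that of the measured genes. Dazl, Stra8, Asz1 and Tex101 had neither motif in this window. Only 1 start per gene was read. The windows of Stra8 and Tex101 (chr7:24672051-24672300, minus strand) lie inside the genes as GENCODE vM21 bounds them, chr6:34920163-34939344 and chr7:24668007-24676675. Sequence before those outer bounds was not searched. The window read for Stra8 was the poorest in CpG of the set (5 CG pairs, against 12 to 20 in the other 8). The median was 6 over all genes and 16 over the genes measured here, with quartiles of 9 and 23. The 5 promoters with an E-box are shown because the match to the E-box turns on them, and the Stra8 window for its few CG pairs. Each is written 5′ to 3′ on the strand of its gene, with the motif matches in capitals: Sycp3 from chr10:88459337-88459586 on the plus strand, Hormad1 from chr3:95559427-95559676 on the plus strand, Mael from chr1:166238745-166238994 on the minus strand, Sycp1 from chr3:102936101-102936350 on the minus strand, Slc25a31 from chr3:40708621-40708870 on the plus strand and Stra8 from chr6:34920698-34920947 on the plus strand.
Sycp3: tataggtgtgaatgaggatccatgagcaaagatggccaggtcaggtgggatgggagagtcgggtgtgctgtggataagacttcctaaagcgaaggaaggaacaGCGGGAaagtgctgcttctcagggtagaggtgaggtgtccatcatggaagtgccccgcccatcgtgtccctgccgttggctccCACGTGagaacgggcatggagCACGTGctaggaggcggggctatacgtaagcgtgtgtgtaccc
Hormad1: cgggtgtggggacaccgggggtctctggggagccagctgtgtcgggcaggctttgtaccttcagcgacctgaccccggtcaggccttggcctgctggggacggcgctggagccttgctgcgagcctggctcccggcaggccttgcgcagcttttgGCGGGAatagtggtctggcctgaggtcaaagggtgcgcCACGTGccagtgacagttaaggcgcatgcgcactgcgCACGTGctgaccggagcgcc
Mael: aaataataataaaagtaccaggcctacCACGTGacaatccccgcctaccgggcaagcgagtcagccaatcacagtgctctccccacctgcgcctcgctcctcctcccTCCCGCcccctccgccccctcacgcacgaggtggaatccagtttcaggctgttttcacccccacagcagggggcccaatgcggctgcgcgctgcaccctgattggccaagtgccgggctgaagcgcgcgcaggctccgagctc
Sycp1: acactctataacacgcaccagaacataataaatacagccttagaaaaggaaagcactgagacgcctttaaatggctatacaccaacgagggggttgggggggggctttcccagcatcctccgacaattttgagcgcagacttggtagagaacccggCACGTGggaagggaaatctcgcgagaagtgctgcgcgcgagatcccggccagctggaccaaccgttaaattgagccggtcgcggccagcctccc
Slc25a31: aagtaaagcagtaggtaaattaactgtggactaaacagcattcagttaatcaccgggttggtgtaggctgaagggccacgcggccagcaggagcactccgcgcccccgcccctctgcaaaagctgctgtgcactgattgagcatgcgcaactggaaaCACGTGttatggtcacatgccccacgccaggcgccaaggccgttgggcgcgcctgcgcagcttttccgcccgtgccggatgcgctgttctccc
Stra8: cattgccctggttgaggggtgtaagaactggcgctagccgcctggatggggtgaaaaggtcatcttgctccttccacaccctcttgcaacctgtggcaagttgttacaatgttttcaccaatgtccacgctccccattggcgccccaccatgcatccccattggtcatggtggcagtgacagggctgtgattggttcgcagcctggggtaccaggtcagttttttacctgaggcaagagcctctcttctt

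In Sycp3 the E-boxes began 64 and 43 bases before the start and the E2F site 147 bases before it. In Hormad1 the E-boxes began 57 and 20 bases before the start and the E2F site 95 bases before it. The E-boxes of Sycp1 and Slc25a31 lay at nearly the same distance, 94 and 93 bases. In Mael the E-box was the farthest out of the 7, at 223 bases, and the E2F site began 143 bases before the start. A match is a run of letters and not a measured binding site.

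Levels per length were compared at 0 h, as CPM per kilobase of merged exons (mean ± SD, n = 2). Sycp3, a protein of the chromosome axis in meiosis, was highest at 7.39 ± 1.37. Stra8, which drives germ cells into meiosis on retinoic acid, stood at 5.48 ± 0.333, and Mael, a piRNA pathway protein of germ granules, at 5.26 ± 0.677. Stra8 and Mael did not differ beyond the spread of their duplicates. The rest were lower: Hormad1 was at 1.54 ± 0.115, Meiob at 1.02 ± 0.130, Dazl at 0.868 ± 0.160, Sycp1 at 0.336 ± 0.0452 and Slc25a31 at 0.246 ± 0.0522. Meiob and Dazl overlapped between their duplicates. By 72 h the order had changed: Sycp3 reached 32.0 ± 13.7 CPM per kilobase, Mael followed at 11.1 ± 1.75, and Stra8 was last at 0.0532 ± 0.000402. The wide SD of Sycp3 at 72 h comes from 22.3 in replicate A and 41.7 in replicate B.

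All further levels and differences are on the log2 CPM scale, which carries an offset of 0.5 reads, and differences between time points were fitted with limma over all 42 libraries and called at an adjusted p below 0.0001 (Benjamini-Hochberg over 14296 genes). Over the whole course, 7 of the 8 genes differed between time points (limma F test, adjusted p from 4.56e-14 for Sycp3 to 5.4e-07 for Stra8), against 74.6% of all genes. Meiob did not pass (adjusted p = 0.000485), and it passed when 96 h replicate B was left out, which made 8 of 8. The genes were not highest together. Both courses had Stra8 and Meiob highest at 0 h, Hormad1 at 42 h, Sycp1 at 54 h and Mael at 66 h. Dazl and Slc25a31 were highest at 48 h in replicate A and at 42 h in replicate B, and Sycp3 at 84 h in replicate A and at 72 h in replicate B. The 72 h and 84 h libraries of Sycp3 overlapped, and the times of the maxima are a description with no test.

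**Figure D1:**
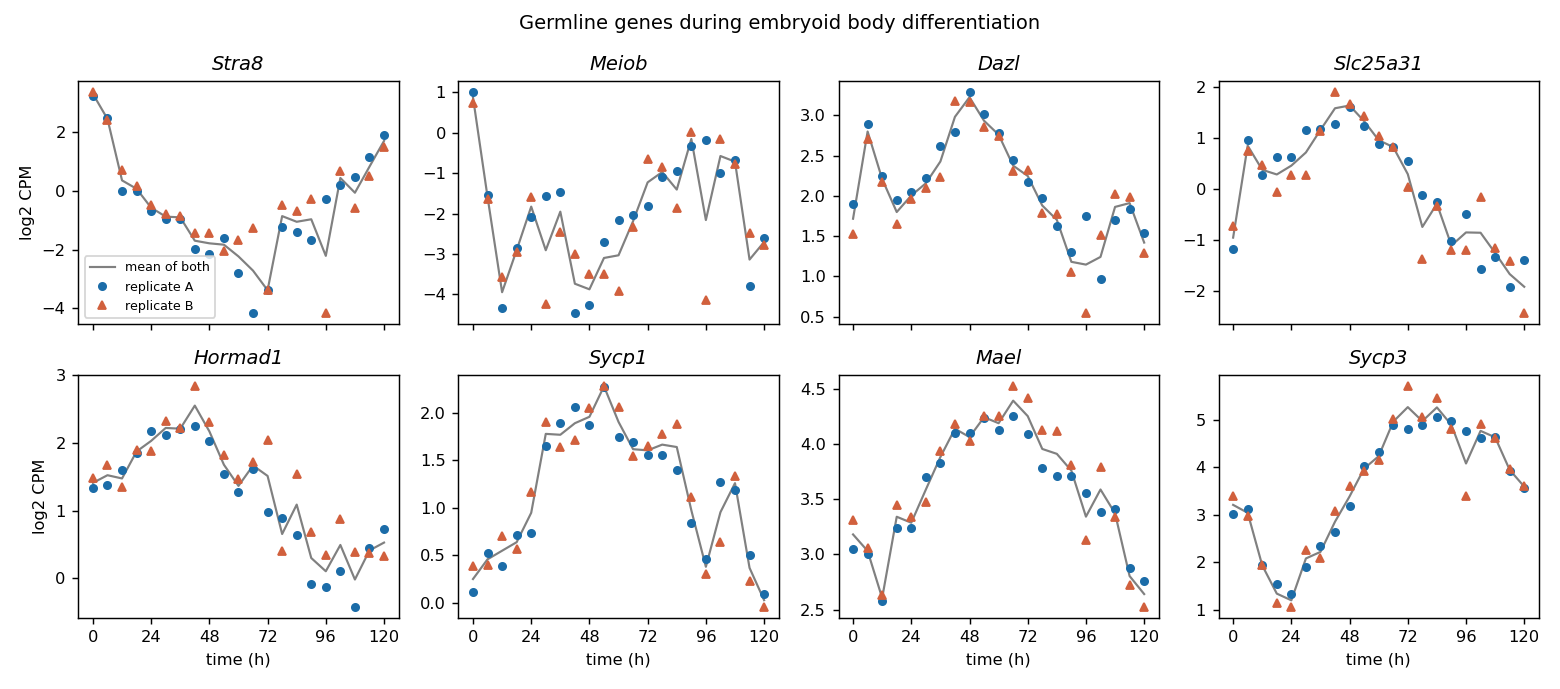
Level of each germline gene (log2 CPM, y axis, scaled for each gene) against time after LIF withdrawal (h, x axis), with points for replicate A (circles) and replicate B (triangles) and a line for their mean. Stra8 and Meiob are highest at 0 h, the others reach their highest mean between 42 h and 72 h, and replicate B at 96 h lies apart for Stra8, Meiob and Sycp3.

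**Figure D2:**
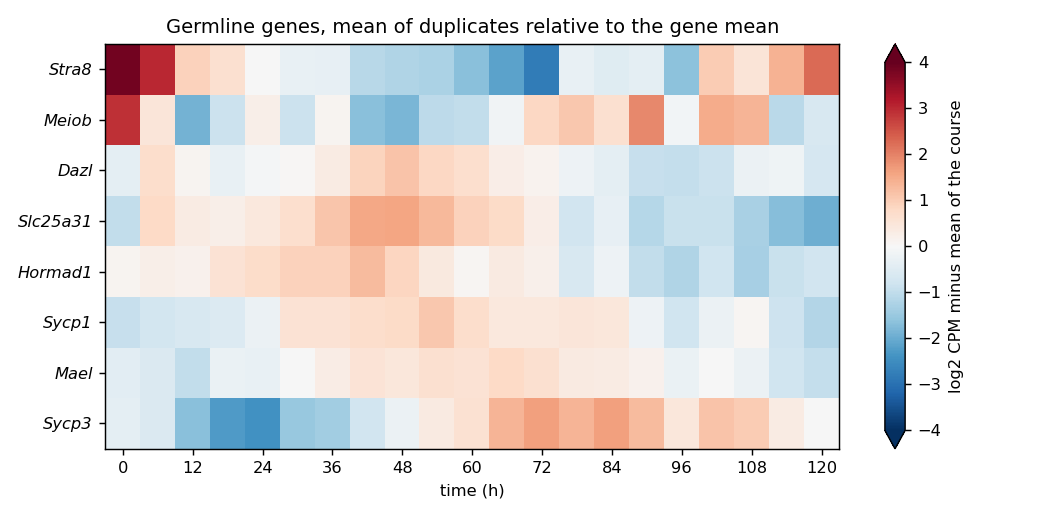
Mean of both replicates for each germline gene (rows) at each time point (columns, h), as log2 CPM minus the mean of that gene over the course (colour). From top to bottom the red stretch moves from 0 h (Stra8, 3.30 log2 CPM) through 42 h to 54 h (Hormad1, Slc25a31, Dazl, Sycp1) to 66 h and 72 h (Mael, Sycp3).

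The gene that moved most was Stra8, the factor that commits germ cells to meiosis. Its level was 3.24 and 3.37 log2 CPM at 0 h in replicates A and B, 2.49 and 2.42 at 6 h, and 0.01 and 0.71 at 12 h. At 24 h it was at -0.67 and -0.47, at 48 h at -2.14 and -1.42, and at 72 h at -3.39 and -3.37. Both replicates were thus lower at each of these time points than at the one before, and the groups did not overlap. In reads this was 223 and 248 at 0 h and 3 and 2 at 72 h, a level 123-fold lower (95% exact interval 52.5 to 382, counting error only). The later libraries were higher again: 0.20 and 0.69 at 102 h, 1.16 and 0.50 at 114 h, and 1.91 and 1.50 at 120 h, from 103 and 68 reads. In a bulk culture, fewer cells that express a gene and less RNA per cell cannot be told apart.

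Meiob, a single-stranded DNA-binding protein of meiotic recombination, was also highest at 0 h, at 1.01 and 0.75 log2 CPM. The tables hold genes above 1 CPM in at least 2 libraries, so Meiob may be in them through these 0 h libraries. It was at -1.54 and -1.64 at 6 h and at -4.33 and -3.56 at 12 h, which was 1 and 3 reads. Its reads stayed between 0 and 47 in every library, so most of its later values were near the limit of detection. Apart from 96 h replicate B, it was higher again for a stretch between 72 h and 108 h, at -0.33 and 0.03 at 90 h (26 and 38 reads), and back at -2.62 and -2.79 at 120 h (4 and 3 reads).

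Dazl, an RNA-binding protein needed in germ cells for the translation of their mRNAs, had a double maximum. It was at 1.91 and 1.53 at 0 h, at 2.90 and 2.70 at 6 h, at 1.95 and 1.65 at 18 h, at 3.29 and 3.16 at 48 h and at 1.54 and 1.30 at 120 h. Slc25a31, the ADP/ATP carrier of sperm mitochondria, did likewise at a lower level: -1.17 and -0.73 at 0 h, 0.96 and 0.73 at 6 h, 0.62 and -0.06 at 18 h, 1.59 and 1.67 at 48 h and -1.39 and -2.43 at 120 h. In both genes the 6 h libraries lay above the 0 h and 18 h libraries without overlap, and the 48 h libraries above all of these.

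Hormad1, which marks unpaired chromosome axes in meiosis, went from 1.33 and 1.49 at 0 h to 2.26 and 2.85 at 42 h, and was at -0.14 and 0.34 at 96 h. Sycp1, the transverse filament of the synaptonemal complex, went from 0.11 and 0.39 at 0 h to 2.27 and 2.28 at 54 h, and was back at 0.10 and -0.04 at 120 h. All libraries of 0 h and 120 h were below every library from 30 h to 84 h. Mael went from 3.05 and 3.31 at 0 h through a low of 2.58 and 2.63 at 12 h to 4.26 and 4.53 at 66 h, and was at 2.76 and 2.53 at 120 h.

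Sycp3, which lies along the same chromosome axes as Hormad1, followed a different course. It was at 3.02 and 3.40 at 0 h, dropped to 1.34 and 1.07 at 24 h, returned to 3.18 and 3.60 at 48 h, and stood at 4.81 and 5.72 at 72 h and 5.06 and 5.47 at 84 h. At 120 h it was at 3.57 and 3.61. The reads ranged from 42 in replicate B at 18 h to 1533 in replicate B at 84 h. Sycp3 (chr10:88459569-88473236, plus strand, 8 merged exons, GENCODE vM21 on GRCm38) shares 660 exonic bases, 52.2% of its exon length, with Chpt1, a phospholipid enzyme on the minus strand. The libraries were stranded, but the strand setting of the counting is not given in the sources used here, so reads in the shared bases may not be assigned with certainty. Chpt1 itself started at 3.80 log2 CPM (mean of both replicates at 0 h), went down to 3.16 by 24 h and 3.02 by 48 h, and was back to 3.76 by 72 h and 3.74 by 120 h. Chpt1, like Sycp3, was lower at 24 h than at 0 h. From 24 h to 48 h Chpt1 went from 3.21 to 2.96 in replicate A and from 3.10 to 3.08 in replicate B. The part of the shared bases in the Sycp3 values was not tested.

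The first comparison asked which genes had moved by 48 h, when the cells carried epiblast markers. Of the 8 genes, 4 were higher at 48 h than at 0 h, against 14.8% of all genes, and 2 were lower, against 15.6% of all genes. Slc25a31 was 5.98-fold higher (log2 difference 2.58 ± 0.427 SE, limma adjusted p = 8.78e-06), Sycp1 3.27-fold (1.71 ± 0.225, adjusted p = 2.76e-07), Dazl 2.85-fold (1.51 ± 0.252, adjusted p = 9.95e-06) and Mael 1.84-fold (0.88 ± 0.165, adjusted p = 4.48e-05). Each of these was higher in both courses. Stra8 was 34.0-fold lower (-5.09 ± 0.798, adjusted p = 4.12e-06). Meiob fell by 4.75 ± 0.900 (adjusted p = 5.29e-05), on 3 reads at 48 h against 87 at 0 h over both replicates, a 34.6-fold lower level with a counting interval of 11.4 to 171. Its 0 h libraries may be what brought Meiob into the tables, so its call as lower may owe in part to that filter. Hormad1 (0.76, 95% interval 0.06 to 1.46, adjusted p = 0.0535) and Sycp3 (0.18, -0.41 to 0.77, adjusted p = 0.602) did not pass. The median difference of the 8 genes was 0.82, and that of all genes 0.01.

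These calls lean on having both duplicates. The number called dropped from 6 to 2 without 0 h replicate A, to 2 without 0 h replicate B, to 1 without 48 h replicate A and to 2 without 48 h replicate B. Sycp1 alone passed in all 4 of these fits, while Mael and Meiob passed in none of them, and no gene passed in a fit of 7 time points only, which has fewer residual degrees of freedom. The directions of the 6 called genes were the same in every one of these fits.

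**Figure D3:**
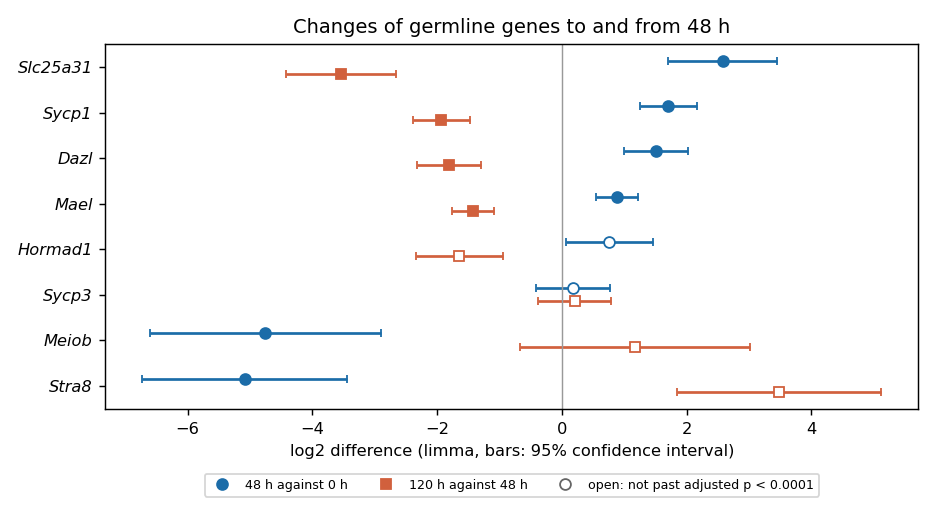
Log2 difference of each germline gene (x axis) at 48 h against 0 h (circles) and at 120 h against 48 h (squares), with 95% confidence intervals from limma. Filled symbols passed an adjusted p below 0.0001: 4 genes are right of 0 and 2 left of it at 48 h against 0 h, and 4 are left of 0 at 120 h against 48 h.

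Around 48 h the other comparisons with 0 h had fewer calls. At 6 h against 0 h none of the 8 genes passed, against 26.3% of all genes in either direction. At an unadjusted p below 0.05, 3 genes stood out: Dazl (1.08, adjusted p = 0.000611), Slc25a31 (1.80, adjusted p = 0.000758) and Meiob (-2.47, adjusted p = 0.0209). Dazl passed without 96 h replicate B (limma adjusted p = 1.93e-05) and under quantile normalization (2.26e-05). The fit with voom weights made 0 calls there. At 24 h against 0 h Sycp3 was 4.02-fold lower (-2.01 ± 0.287, adjusted p = 1.55e-06), the only one called, against 12.8% of all genes that were lower. It missed the threshold without 0 h replicate B (-1.82, adjusted p = 0.000163), without 24 h replicate B (-1.87, adjusted p = 0.000124) and with voom weights (-2.0, adjusted p = 0.000408). Stra8 at 24 h was just outside it (-3.88, adjusted p = 0.000188) and inside it without 96 h replicate B (adjusted p = 5.05e-06) and with voom weights (1.09e-07).

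At 72 h against 0 h, 3 genes were higher, against 13% of all genes, and Stra8 was lower, against 12.2%. Sycp3 was 4.16-fold higher (2.06 ± 0.287, limma adjusted p = 8.08e-07), Sycp1 2.56-fold (1.35 ± 0.225, adjusted p = 1.1e-05) and Mael 2.10-fold (1.07 ± 0.165, adjusted p = 3.59e-06). Stra8 fell by 6.69 ± 0.798 (adjusted p = 6.16e-08). Without 72 h replicate B, the library in which Sycp3 reached 5.72, the number called was 1, Stra8, and Sycp3 had a difference of 1.6 (adjusted p = 0.000205). Without 0 h replicate A it was 2. Without 72 h replicate A Sycp1 alone was lost (1.41, adjusted p = 0.000136).

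At 96 h against 0 h Stra8 was called lower (-5.51 ± 0.798, limma adjusted p = 1.49e-06), against 10.7% of all genes. This rests on the 96 h replicate B, which held 1 read of Stra8 and 1 of Meiob while replicate A held 28 and 30. Without that library Stra8 had a difference of -3.59 (adjusted p = 0.000224), and Sycp3 was called higher (1.56, adjusted p = 2.22e-05, against 0.87 and 0.0125 with it). Without 96 h replicate A, Stra8 and Meiob were both called lower, Meiob at -5.02 (adjusted p = 3.76e-05). At 120 h against 0 h none of the 8 genes passed, against 23% of all genes, 4 had an unadjusted p below 0.05, and the fit with voom weights called 1, Stra8 (limma adjusted p = 9.23e-05, against 0.0957 without them, for a difference of -1.6). Meiob had the lowest adjusted p without weights (-3.58, adjusted p = 0.00147).

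The later course was compared as 120 h against 48 h. Of the 8 genes, 4 were lower at 120 h, against 11% of all genes, and none was higher, against 14.2%. This comparison shares its 48 h libraries with that of 48 h against 0 h, so a high value there raises one difference and lowers the other. Slc25a31 was 11.6-fold lower (-3.54 ± 0.427, limma adjusted p = 8.14e-08), Sycp1 3.81-fold (-1.93 ± 0.225, adjusted p = 4.59e-08), Dazl 3.50-fold (-1.81 ± 0.252, adjusted p = 8.7e-07) and Mael 2.68-fold (-1.42 ± 0.165, adjusted p = 4.18e-08). All 4 calls held without any 1 of the 48 h and 120 h libraries. Hormad1 was outside the threshold (-1.64 ± 0.339, adjusted p = 0.000177) and inside it with a replicate block for the course (adjusted p = 4.02e-05), which made 5 calls. Stra8 had a difference of 3.49 ± 0.798 in the other direction (adjusted p = 0.000543), and passed without 96 h replicate B (1.92e-05) and with voom weights (4.68e-05). Meiob (1.17, -0.68 to 3.02, adjusted p = 0.276) and Sycp3 (0.21, -0.38 to 0.79, adjusted p = 0.564) did not pass. The median difference of the 8 genes was -1.53, and that of all genes 0.00.

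The profiles of the members were set side by side over the 21 time points. The genes share all libraries, so these correlations are a description. Of the 28 pairs, 7 had a Pearson r above 0.5 in both courses and 13 had one below 0 in both. Sycp1 and Mael were closest (r = 0.89 in replicate A and 0.81 in replicate B), then Slc25a31 and Hormad1 (0.81 and 0.86) and Dazl and Slc25a31 (0.84 and 0.82). Stra8 ran against Mael (-0.84 and -0.53) and Sycp1 (-0.76 and -0.54). Sycp3 and Hormad1, partners on the meiotic axis, had negative correlations (-0.75 and -0.37), the one in replicate B being weak. Both carry a pair of E-boxes and an E2F site, and a tie between these motifs and the profiles was not tested.

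Genes outside the set were ranked by their correlation with the mean centred profile of the 8, taking the lower of both courses. The closest were Idh1 (r = 0.68), Rbm44 (0.67), Ssc4d (0.67), Calca (0.67) and Tmem209 (0.65). Idh1 encodes the cytosolic isocitrate dehydrogenase and Calca the hormone calcitonin. These genes were picked as the highest of all genes measured, so their lead over the members carries no weight. The members themselves ranged from -0.02 for Stra8 and 0.15 for Sycp3 to 0.47 for Mael and 0.49 for Meiob. The mean thus describes none of the 8 closely.

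Other genes of the same processes were counted from lists. Of 24 other meiosis genes in the tables, 3 were higher and 6 lower at 48 h than at 0 h (12.5% and 25% of the list, against 14.8% and 15.6% of all genes, median difference 0.02). Later, at 120 h against 48 h, 2 were higher and 8 lower (8.33% and 33.3%, against 14.2% and 11% of all genes, median -0.38). Rec8, the meiotic cohesin kleisin, was lower at 48 h (5.18 to 3.30 log2 CPM, -1.88 ± 0.166 SE, limma adjusted p = 2.25e-10), as were the cohesin subunit Smc1b (2.86 to -0.09, adjusted p = 2.79e-07) and Hormad2 (2.48 to 0.34, adjusted p = 5.6e-05). Rad21l, another meiotic kleisin, was higher (-4.78 to -1.22, adjusted p = 3.43e-05), from a 0 h mean below the level of 3 reads. From 48 h to 120 h the 4 with the largest changes all fell: Tex11 (-2.33, adjusted p = 2.11e-09), Syce2 (-1.57, adjusted p = 2.64e-08), Hsf2bp (-1.44, adjusted p = 1.86e-09) and Syce1 (-1.43, adjusted p = 2.17e-06). Syce1 and Syce2 are central element proteins of the synaptonemal complex, whose filament Sycp1 forms.

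Of 19 other piRNA pathway and germ granule genes, 5 were higher and 2 lower at 48 h than at 0 h (26.3% and 10.5% of the list, against 14.8% and 15.6% of all genes, median -0.07). The interval to 120 h had 4 higher and 3 lower (21.1% and 15.8%, against 14.2% and 11%, median -0.10). With so few genes these shares are near those of all genes. Henmt1, which methylates piRNA ends, went from -3.99 to 0.36 by 48 h and on to -4.53 by 120 h (adjusted p = 8.52e-07 and 1.65e-07). Its 0 h and 120 h means were below the level of 3 reads, so the sizes of these changes are uncertain. Henmt1 may also be in the tables, which require 1 CPM in at least 2 libraries, through its higher libraries such as those of 48 h. Tdrd1 (1.39 to 3.32, adjusted p = 8.93e-10) and Rnf17 (4.38 to 5.76, adjusted p = 4.35e-08), both tudor domain proteins of germ granules, were higher at 48 h, and Exd1 was lower (2.55 to 1.28, adjusted p = 6.27e-06). From 48 h to 120 h Tdrd12 fell (3.92 to 2.13, adjusted p = 3.37e-10), while Tdrd7 (0.16 to 4.11, adjusted p = 8.92e-14) and Tdrkh (2.53 to 3.73, adjusted p = 1.16e-05) rose. Mael was the only measured gene of the set in this pathway, since Asz1 was not in the tables.

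A further list was drawn up by name for other testis genes sensitive to DNA methylation, and the response of its genes to methylation was not measured here. Of 9 in the tables, 2 were higher and 1 lower at 48 h (22.2% and 11.1%, near the 14.8% and 15.6% of all genes, median -0.20). Between 48 h and 120 h, 1 was higher and 4 lower (11.1% and 44.4%, against 14.2% and 11%, median 0.05). Taf7l, a germ cell transcription factor subunit, went from 0.79 to 2.38 and then to 1.01 (adjusted p = 6.28e-07 and 6.99e-06). Tex10, the other of the 2 called higher at 48 h, was already at 6.59 at 0 h (7.80 at 48 h, adjusted p = 1.42e-11), so it was not a silent gene. Zfp42, also known as a pluripotency marker, was lower (9.18 to 6.88, adjusted p = 7e-12). Rpl10l (2.44 to -0.22, adjusted p = 2.29e-09) and Tuba3a (2.59 to 0.86, adjusted p = 3.19e-06) fell after 48 h, and Dppa3 rose (-0.81 to 3.88, adjusted p = 6.03e-11).

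The enzymes that methylate germline promoters changed over the same hours. Of 11 DNA methylation and demethylation genes, 5 were higher and 1 lower at 48 h than at 0 h (45.5% and 9.09%, against 14.8% and 15.6% of all genes, median 0.74). After that, at 120 h against 48 h, none was higher and 5 were lower (45.5%, against 11% of all genes, median -0.72). The de novo methyltransferase Dnmt3b was at 6.52 and 6.37 log2 CPM at 0 h, 10.61 and 10.51 at 48 h and 7.54 and 7.39 at 120 h. Its difference at 48 h was 4.11 ± 0.111 SE (limma adjusted p = 5.54e-21), and from 48 h to 120 h it fell by 3.09 (adjusted p = 2.7e-18). Dnmt3a rose by 2.92 (adjusted p = 2.77e-19) and fell by 2.82 (adjusted p = 6.79e-19). Their cofactor Dnmt3l rose by 0.92 (adjusted p = 7.42e-06) and fell by 2.30 (adjusted p = 8e-13). The chromatin remodeller Hells did the same (1.43, adjusted p = 3.39e-09, then -1.48, adjusted p = 2.35e-09). Duplicates of these genes lay close together, so both changes were far larger than the spread.

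For maintenance methylation, Dnmt1 had a difference of 0.06 at 48 h (adjusted p = 0.721), and its partner Uhrf1 had one of 0.31 (adjusted p = 0.00192) before it fell by 0.72 from 48 h to 120 h (adjusted p = 3.23e-08). Of the TET oxidases, which remove methylation, Tet2 fell by 2.07 to 48 h (adjusted p = 3.72e-08) and was at 0.40 above that at 120 h (adjusted p = 0.163). Tet1 did not pass in either comparison (0.74, adjusted p = 0.0206, then -1.32, adjusted p = 0.000185). Dnmt3a had its highest mean at 42 h and Dnmt3b at 54 h, the same interval in which Hormad1, Dazl, Slc25a31 and Sycp1 had theirs. Stra8 and Meiob had theirs at 0 h, Mael at 66 h and Sycp3 at 72 h. A link between these enzymes and the germline genes was not tested.

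**Figure D4:**
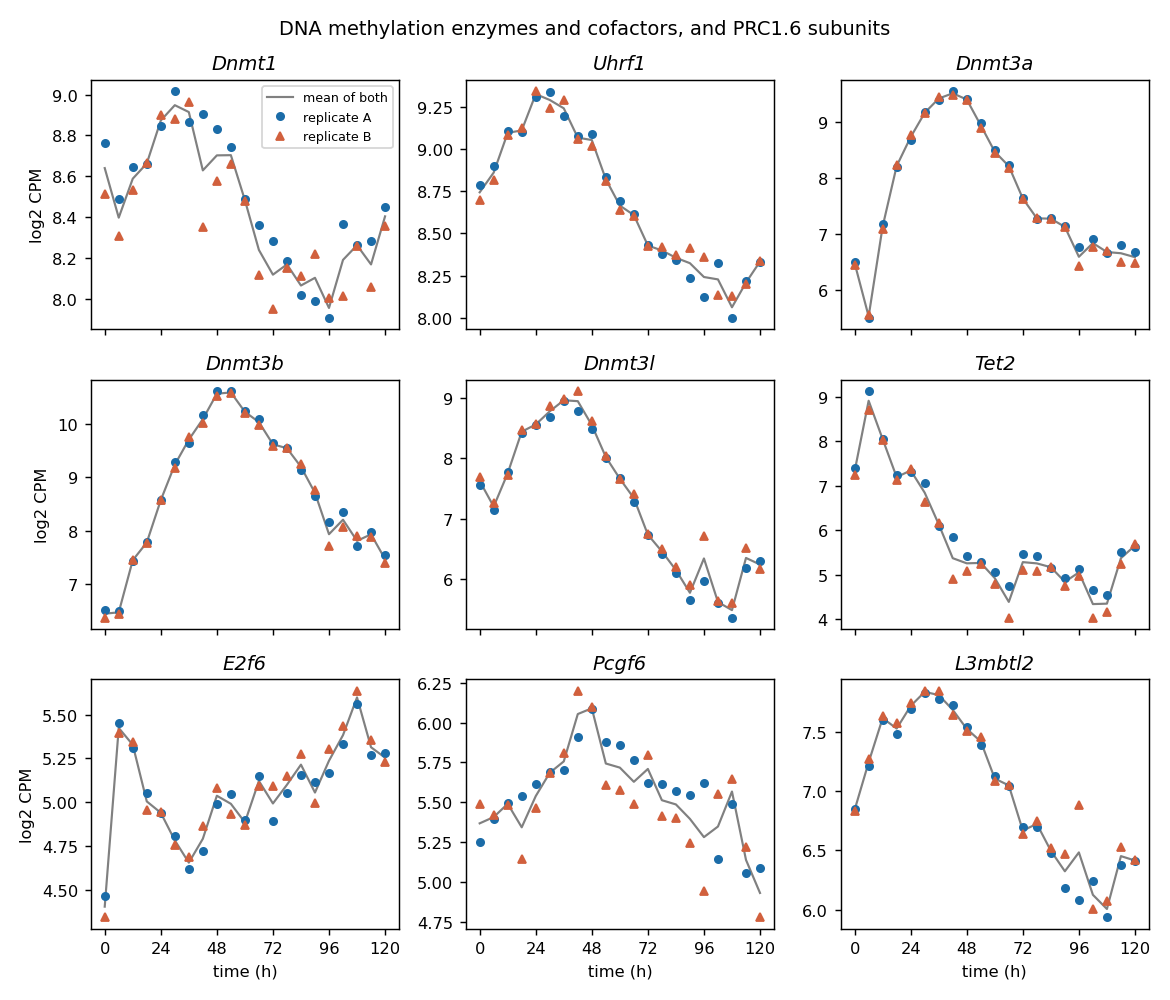
Level of DNA methylation enzymes and cofactors and of 3 PRC1.6 subunits (log2 CPM, y axis, scaled for each gene) against time (h, x axis), with replicate A as circles, replicate B as triangles and their mean as a line. Dnmt3a and Dnmt3b are highest between 42 h and 54 h, near the maxima of Dazl, Slc25a31, Hormad1 and Sycp1. The maxima of Stra8, Meiob, Mael and Sycp3 lie outside that interval.

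Of 22 genes of PRC1.6 and other repressors of germline genes, 6 were higher and 1 lower at 48 h than at 0 h (27.3% and 4.55%, against 14.8% and 15.6% of all genes, median 0.41). Set against 48 h, the 120 h libraries had 1 higher and 7 lower (4.55% and 31.8%, against 14.2% and 11%, median -0.41). At 48 h the largest changes were in Zfp57, an imprinting zinc finger protein (-2.09, adjusted p = 6.56e-12), Cbx3 (1.09, adjusted p = 2.21e-07), Yaf2 (0.93, adjusted p = 6.25e-08) and the histone methyltransferase gene Ehmt1 (0.90, adjusted p = 6.28e-09). E2f6, which brings the complex to E2F sites, rose by 0.63 ± 0.0875 (adjusted p = 5.85e-07) and was at 0.22 above that at 120 h (adjusted p = 0.0355). Pcgf6, the subunit that defines PRC1.6, had a difference of 0.72 at 48 h (adjusted p = 0.00104) and fell by 1.16 from 48 h to 120 h (adjusted p = 4e-06). L3mbtl2 did likewise (0.68, adjusted p = 0.000124, then -1.11, adjusted p = 1.47e-07), and Trim28 (-1.03, adjusted p = 5.5e-08) and Rybp (-0.89, adjusted p = 4.34e-09) fell over the same interval. The E-box binders did not pass: Mga had differences of 0.77 (adjusted p = 0.00371) and -0.56 (adjusted p = 0.0335), and Max of 0.09 (adjusted p = 0.682) and -0.37 (adjusted p = 0.0967).

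The 5 germline genes with an E-box in their promoter did not share 1 course. From 0 h to 48 h Sycp1, Mael and Slc25a31 were called higher, and Hormad1 and Sycp3 were not called. From 48 h to 120 h Sycp1, Mael and Slc25a31 were called lower, and Hormad1 and Sycp3 were not called. Of the 2 measured genes with neither motif in the window read, Dazl was higher and Stra8 lower at 48 h. With 7 measured promoters this is a description and carries no test.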

How the data were processed

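The authors trimmed reads with Trim Galore, aligned them with TopHat2 to mm10, counted genes with HTSeq, scaled libraries by size in edgeR and applied voom; the deposited values are log2 CPM of 14296 genes in 42 libraries. Whole reads were recovered from the voom formula (largest distance from a whole read 1.5e-08) and used for read counts. Of the 14296 identifiers, 14177 had a symbol. Here limma 3.58.1 (R 4.3.3) was fitted to the deposited log2 values with 21 time points as groups (21 residual degrees of freedom, mean trend), tested on simulated data, with Benjamini-Hochberg adjustment per comparison and a threshold of 0.0001. Intervals are 95%, exact for read counts. The members and lists were chosen with earlier results of these data known. Named genes were all members, up to 4 genes per list with the largest called change of equal sign in both courses (48 h against 0 h, 120 h against 48 h), the 5 most alike in profile, and Dnmt1, Uhrf1, Dnmt3a, Dnmt3b, Dnmt3l, Tet1, Tet2, Pcgf6, Mga, Max, L3mbtl2 and E2f6. 1 gene that this rule names is not reported here. Replicates are biological duplicates per the labels. The letters A and B mark a course: deviations of libraries with the same letter correlated at 0.0795 on average over 210 pairs of time points (lowest -0.474). Depth limits genes of few reads. Alternatives were a replicate block, voom weights, a filter on low values, 2 other scalings, an offset of 2 reads, a fit of 7 time points, a threshold of 0.05 and leaving out libraries, of which 96 h replicate B was added for all comparisons after the data were seen. Plots were drawn with matplotlib 3.10.9.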

Additional observations from a re-analysis of the deposited data

How the results depend on the processing

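Of 477 alternative values for 38 changes of single germline genes, 399 kept direction and side of the threshold, 42 lost the call, 31 gained one and 5 turned sign, none of the 5 called. The 5 were Sycp3 at 48 h (-0.012 without 0 h replicate A and -0.032 without 48 h replicate B, in a range up to 0.39 without 1 library), Sycp3 at 120 h against 48 h (-0.11 under quantile normalization and -0.0051 without 48 h replicate A, in a range up to 0.42 without 1 library) and Meiob at 120 h against 48 h (-0.67 under quantile normalization). Without 1 library the number of genes called was 0 to 1 at 6 h, 0 to 2 at 24 h, 1 to 6 at 48 h, 1 to 4 at 72 h and 1 to 2 at 96 h, each against 0 h, with 96 h replicate B left out among these, and 8 over all time points without it. The fit of 7 time points called 0 genes at 24 h, 48 h and 96 h, 1 gene at 72 h and 3 genes over all time points. With an adjusted p below 0.05, 3 genes were called at 6 h and at 120 h, 5 genes at 24 h and 4 genes at 96 h. Quantile normalization called 1 at 6 h and 0 at 24 h, an offset of 2 reads 2 at 24 h, voom weights 1 at 120 h, and the filter on low values, which leaves out Stra8, 0 at 96 h. The replicate block changed no call but that of Hormad1 at 120 h against 48 h (adjusted p = 4.02e-05). The count at 120 h against 48 h was between 3 and 6 in all fits. Over all genes, 3247 to 4349 were called per comparison, against 915 to 1977 in the fit of 7 time points, 7427 to 8849 at an adjusted p below 0.05 and as few as 1753 without 1 library. Centring libraries on their median moved the median difference of all genes from 0.01 to 0.15 at 48 h against 0 h and from 0.00 to -0.15 at 120 h against 48 h, and the share of calls that were higher from 45.0% to 55.8% at 6 h, 43.6% to 58.4% at 24 h, 48.7% to 59.6% at 48 h and 56.4% to 43.1% at 120 h against 48 h; the called germline genes kept their directions. By Spearman correlation the closest profile was at 0.648. Stra8, Meiob and Slc25a31 had libraries of 5 reads or fewer, so a low value in them may reflect depth.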

Other observations

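Regulators of primordial germ cells, the embryonic founders of the germline, were followed as a list of their own. Of 14 such genes, 48 h against 0 h gave 1 higher and 6 lower (7.14% and 42.9%, against 14.8% and 15.6% of all genes, median difference -0.80). By 120 h, set against 48 h, 6 were higher and 2 lower (42.9% and 14.3%, against 14.2% and 11%, median 1.01). Markers of embryonic stem cells moved the same way, with 7 of 8 lower at 48 h and 5 of 8 higher again at 120 h: Klf4 rose by 2.76, Tbx3 by 2.65, Tfcp2l1 by 2.27 and Esrrb by 1.59 from 48 h (limma adjusted p of 6.11e-07 or less). The lists share Pou5f1, Nanog and Sox2, so the likeness is in part that of the same genes. The part of stem cells in the values of the germ cell regulators, of which Nanog and Prdm14 are also pluripotency genes, was not tested. Tfap2c, a transcription factor of germ cell specification that trophoblast and surface ectoderm also express, was at 3.94 and 3.79 log2 CPM at 0 h, 0.43 and 0.11 at 48 h, and 6.37 and 6.44 at 120 h (limma adjusted p = 6.82e-13 for the first change and 1.06e-17 for the second). Prdm14 went from 4.68 to 0.55 and then to 3.84 (adjusted p = 1.63e-14 and 2.02e-12). Kit, the receptor of germ cells and of several other lineages, went from 5.62 to 3.17 and then to 5.35 (adjusted p = 1.11e-14 and 1.4e-13). Nanog was lower at 48 h (8.89 to 7.0, adjusted p = 4.9e-13).

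Of 6 genes of the retinoic acid response, 1 was higher and 1 lower at 48 h than at 0 h (16.7% each, median -0.02). These shares are near the 14.8% and 15.6% of all genes. At 120 h against 48 h, 3 were higher and 1 lower (50% and 16.7%, median 2.16), against 14.2% and 11% of all genes. Cyp26a1, which degrades retinoic acid, was at -3.03 and -5.82 at 48 h and at 3.20 and 3.06 at 120 h (adjusted p = 3.4e-09). The 48 h value of replicate B was below the level of 3 reads. Dhrs3 was higher at 120 h than at 48 h (2.25 to 3.44, adjusted p = 9.26e-07) and Rarg lower (8.08 to 6.78, adjusted p = 8.14e-07).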
